A study of Mus musculus with 12 samples.

Results

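Enzymes that add acetyl or methyl groups to histone lysines, and those that remove them, were followed in mouse brain punches from isolated and group-housed animals. They were taken by gene symbol, as entries of the count table named Kdm, Kmt, Setd, Ezh, Kat, Hdac or Sirt. A member also needed at least 10 counts in 3 or more of the 12 libraries. Of 54429 entries, 62 fitted the naming pattern. The rule set 3 of these aside, and the other 59 were the members described here. The lowest count of any member in any library was 41, for Kdm4d, and all 59 entered every test.

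Lysine acetyltransferases loosen the hold of histones on DNA and are found at active promoters and enhancers, and deacetylases reverse the reaction. The zinc-dependent deacetylases fall into class I, IIa, IIb and IV, whereas the sirtuins need NAD. Methylation works by position: some methyltransferases mark active promoters, others mark transcribed or silenced genes, and each mark has its own demethylases. In neurons these enzymes are known for their part in memory, in the response to stress and in developmental disorders caused by loss of a single gene copy. Not every name is literal. Hdac6 acts mainly on tubulin, Hdac10 on polyamines, Setd3 on actin, Kdm8 is best known as a hydroxylase, and Sirt3, Sirt4 and Sirt5 are mitochondrial.

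The libraries held total RNA of C57BL/6 mice and formed 4 groups of 3: isolated male BLA, group-housed male BLA, isolated female VTA and group-housed female VTA. Isolation was early in life per the labels, which give no ages, name the regions only by the abbreviations BLA and VTA, and list the tissue as cerebrum. The design text gives the sexes and asks, within each region, how stressed animals differ from controls. BLA was sampled only in males and VTA only in females, so region and sex cannot be told apart in any contrast between them. The labels do not tie libraries to animals, so p-values measure the spread between libraries, which may be technical.

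Total counts ran from 28277721 to 69270051 per library. Levels are given in CPM, the usual depth-scaled count, with TMM factors over all 12 libraries. Summed over 8 markers, dopamine neuron genes stood at 69.3 to 77.9 CPM in isolated BLA and 65.2 to 81.4 CPM in group-housed BLA, against 806 to 1066 CPM in isolated VTA and 616 to 1327 CPM in group-housed VTA, with Foxa2 at 0 in 3 BLA libraries and En1 and Pitx3 in 2 each. Of these 8, only Nr4a2 was not higher in VTA, at 45.8 to 63.2 CPM over the BLA groups and 23.6 to 55.4 CPM over the VTA groups. The 8 markers of cortical and basolateral glutamatergic neurons summed to 1445 to 2756 and 2131 to 2765 CPM in those BLA groups, against 171 to 751 and 117 to 149 CPM in those VTA groups, and only Emx1 was at 0, in 1 VTA library. The top of the VTA range was isolated VTA library 3, which also held 3366 CPM over 8 choroid plexus markers, against 248 CPM in isolated VTA library 1. The other 10 libraries held 32.7 CPM or less. Isolated VTA library 3 also held 595 CPM over 8 markers of striatal projection neurons, against 147 to 187 CPM in the other VTA libraries. Entries that collect ribosomal RNA reads took 18.6% of the counts of isolated BLA library 3, 28.6% of group-housed BLA library 1 and 41.8% of group-housed BLA library 2, and at most 1.57% elsewhere. Regional values that depend clearly on these 3 libraries are given with and without them, and leaving them out keeps 3 BLA libraries, of which 1 is group-housed.

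Upstream sequence was available in RefSeq (GRCm38.p6) for 47 of the 59 genes, with 67 windows of 250 bases before an annotated start. A feature that the choice by name did not use was their richness in CpG. The members also had to pass the count filter, whereas the windows compared were not limited to detected genes. Whether detected genes in general share this richness was not tested. Median GC was 61.2% over the 67 windows, against 52.4% over all 32851 windows of the table, and the median ratio of observed to expected CpG was 0.79 against 0.37. The GC box GGGCGG, searched on both strands, was present in 58.2% of the members' windows and in 32.7% of all windows. The E-box CACGTG was present in 4.5% against 6.0%, and the cyclic AMP element TGACGTCA in 0% against 1.5%. These matches describe letters in a window, not binding. The lines below show the stretch before the annotated gene for the methyltransferase and the demethylase with the lowest adjusted p for a regional difference in their roles, for the acetyltransferase pair Kat2a and Kat2b, and for Hdac11, the member with the highest level per length. Each runs 5′ to 3′ on the strand of its gene, and every CG is in capitals.

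Kmt2d, chr15:98871206-98871455, minus strand: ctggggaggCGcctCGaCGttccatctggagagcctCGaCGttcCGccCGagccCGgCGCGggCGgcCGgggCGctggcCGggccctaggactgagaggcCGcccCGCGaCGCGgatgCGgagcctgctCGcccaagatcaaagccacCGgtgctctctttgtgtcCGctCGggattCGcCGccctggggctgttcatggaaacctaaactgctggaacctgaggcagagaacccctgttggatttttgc
Kdm7a, chr6:39206790-39207023, minus strand: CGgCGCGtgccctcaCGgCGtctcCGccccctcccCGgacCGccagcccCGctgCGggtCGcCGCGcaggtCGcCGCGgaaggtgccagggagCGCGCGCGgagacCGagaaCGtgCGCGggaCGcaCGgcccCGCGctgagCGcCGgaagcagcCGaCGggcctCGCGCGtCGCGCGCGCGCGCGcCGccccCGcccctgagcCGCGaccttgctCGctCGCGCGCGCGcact
Kat2a, chr11:100712468-100712717, minus strand: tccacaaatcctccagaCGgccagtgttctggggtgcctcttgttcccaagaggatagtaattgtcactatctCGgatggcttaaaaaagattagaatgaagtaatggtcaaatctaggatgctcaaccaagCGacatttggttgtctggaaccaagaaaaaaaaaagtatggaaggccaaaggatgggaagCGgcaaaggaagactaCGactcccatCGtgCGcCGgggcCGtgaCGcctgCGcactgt
Kat2b, first of 2 starts, chr17:53566721-53566860, plus strand: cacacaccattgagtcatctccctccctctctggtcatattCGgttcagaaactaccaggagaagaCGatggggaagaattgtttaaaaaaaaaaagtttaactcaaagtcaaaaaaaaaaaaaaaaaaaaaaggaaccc
Hdac11, chr6:91156565-91156664, plus strand: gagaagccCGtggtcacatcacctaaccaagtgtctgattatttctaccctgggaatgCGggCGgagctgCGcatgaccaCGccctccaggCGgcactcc

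The Kdm7a stretch carried 52 CpGs in 234 bases and the Kmt2d stretch 26 in 250. Kat2a had 11 in 250, most of them within the bases nearest the start, and the first Kat2b stretch had 2 in 140. Hdac11 had 6 in 100.

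Levels per kb of exon spanned a wide range within each role, as the plot of level per exon length shows. Exon length here joins all annotated exons of a gene and can exceed its longest transcript. For Setd3 it was 6035 bases against 3056, and for Hdac11 3849 against 2653. The orders below hold for this length only, and orders by transcript length were not examined. Among the demethylases the highest mean over all libraries was that of Kdm4b, at 17.2 CPM per kb in BLA and 11.7 CPM per kb in VTA. Kdm1a, the flavin-dependent demethylase of the CoREST complex, followed with 14.4 and 13.2 CPM per kb in the same order. Over all libraries Kdm4b lay between 10.6 and 21.5 and Kdm1a between 11.6 and 15.7 CPM per kb. Their order went with the region: the mean of Kdm4b was above that of Kdm1a in both BLA groups and below it in both VTA groups. At the lower end stood Kdm6b, which removes the Polycomb mark, with 1.42 CPM per kb in BLA and 0.805 in VTA, and Kdm4d, with 0.908 and 0.886.

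Setd3 led the methyltransferases with 33.6 CPM per kb in BLA and 32.04 CPM per kb in VTA, well above Setd7 at 16.5 and 11.99. Setd1b, a catalytic subunit of a complex that marks active promoters, had the lowest mean over all libraries, at 1.601 CPM per kb in BLA and 0.494 in VTA, although in BLA alone Ezh2, Kmt5c and Setd4 were lower. Ezh1 and Ezh2 are alternative catalytic subunits of Polycomb repressive complex 2. Ezh1 stood at 9.66 CPM per kb in BLA and 10.3 in VTA, and Ezh2 at 1.38 and 1.504. No library of Ezh2, at most 1.92 CPM per kb, reached the lowest library of Ezh1, at 8.66.

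The acetyltransferases lay closer together, with Kat7 at the top (17.5 CPM per kb in BLA and 16.5 in VTA) and Kat14, a subunit of the ATAC complex, at the bottom (5.71 and 4.33) in the mean over all libraries. In BLA alone Kat2b was lower, at 5.58. Hdac11, the only class IV deacetylase, had the highest level per exon length of all members, 36.6 CPM per kb in BLA and 52.5 in VTA. Its lowest single library held 33.9 CPM per kb, within the range of Setd3 over all libraries (29.8 to 35.4). The mean of Hdac11 was still the higher in each of the 4 groups, such as 35.5 against 33.6 CPM per kb in isolated BLA. Of the class I deacetylases, Hdac3 of the NCoR complex (18.6 in BLA, 20.5 in VTA) and Hdac2 (18.9 and 15.3) stood above Hdac1 (3.396 and 4.11) and Hdac8 (2.498 and 3.76). Class IIa ran from Hdac5 (15.6 in BLA, 17.4 in VTA) down to Hdac7 (1.78 and 2.47), and the sirtuins from Sirt2, a protein known from myelin (18.8 and 21.6), down to Sirt5 (2.09 and 2.79).

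**Figure D1:**
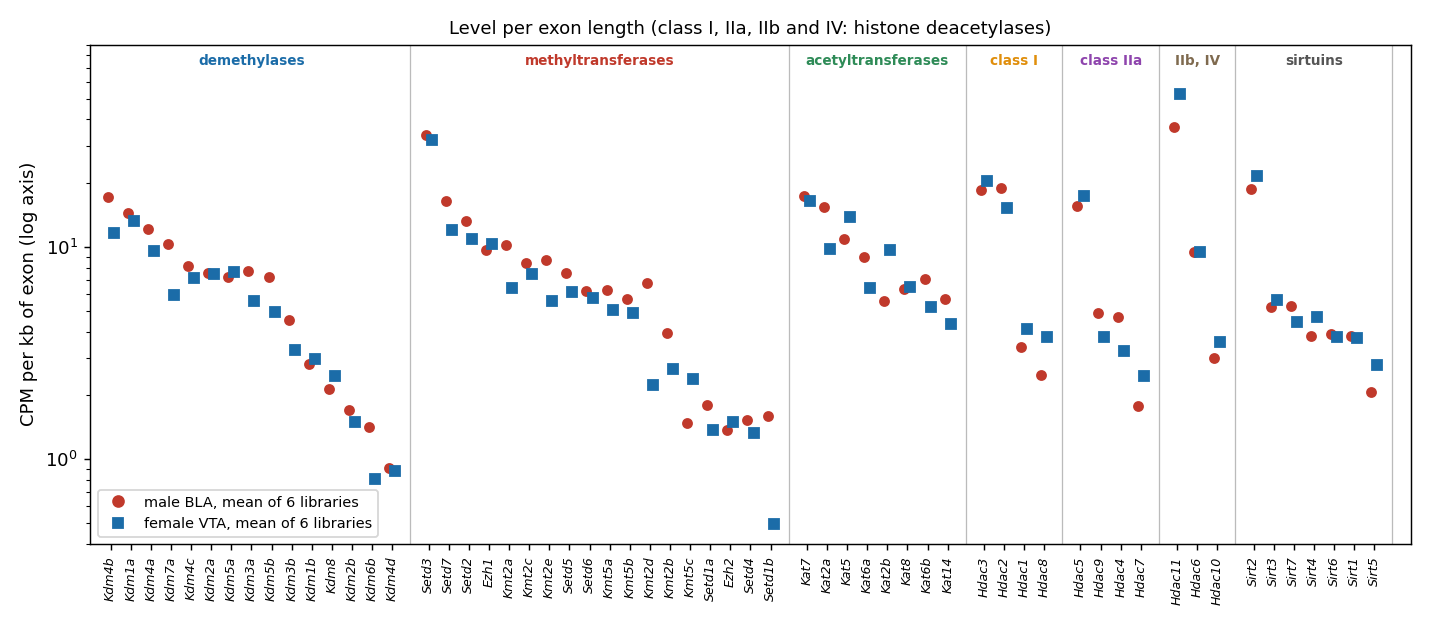
Mean level of each of the 59 genes in CPM per kb of exon (vertical axis, log scale), grouped by role along the horizontal axis, with circles for the 6 male BLA libraries and squares for the 6 female VTA libraries. Hdac11 has the highest levels, and Setd1b in VTA the lowest.

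Male BLA and female VTA differed in the level of many of these genes. The demethylases and methyltransferases that differed were nearly all higher in BLA, the acetyltransferases divided, and several deacetylases and sirtuins were lower. A gene passed where edgeR's quasi-likelihood F test gave an adjusted p under 0.05 (Benjamini-Hochberg, over all genes), the rule used throughout, and 37 of the 59 members did. Among all 25009 genes tested, a set not matched to the members in exon length, 47.7% passed. Shares by exon length are given further on. The direction was uneven: 28 members passed as higher in BLA and 9 as lower, against 23.7% and 24.1% of all genes. These shares of all genes also stand beside the counts by role below. The levels of 26 members did not overlap between the 6 BLA and the 6 VTA libraries, which held for 27.1% of all genes. Over the 59 members the median log2 fold change, BLA over VTA, was 0.17, against -0.021 over all genes tested. Without the 3 ribosomal RNA-rich libraries 28 members passed, 20 as higher and 8 as lower, or 47.5% of the members against 33.3% of all genes, and the median was 0.11. In bulk punches, fewer cells of a type and less RNA per cell cannot be told apart. Oligodendrocyte markers, 8 of 8 in the table and none at 0, summed to 3034 to 5469 CPM in isolated BLA and 2724 to 4644 CPM in group-housed BLA, against 9695 to 13153 and 6657 to 10936 CPM in isolated and group-housed VTA. The part of this and of the neuron markers and ribosomal RNA shares above in the regional differences was not tested.

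**Figure D2:**
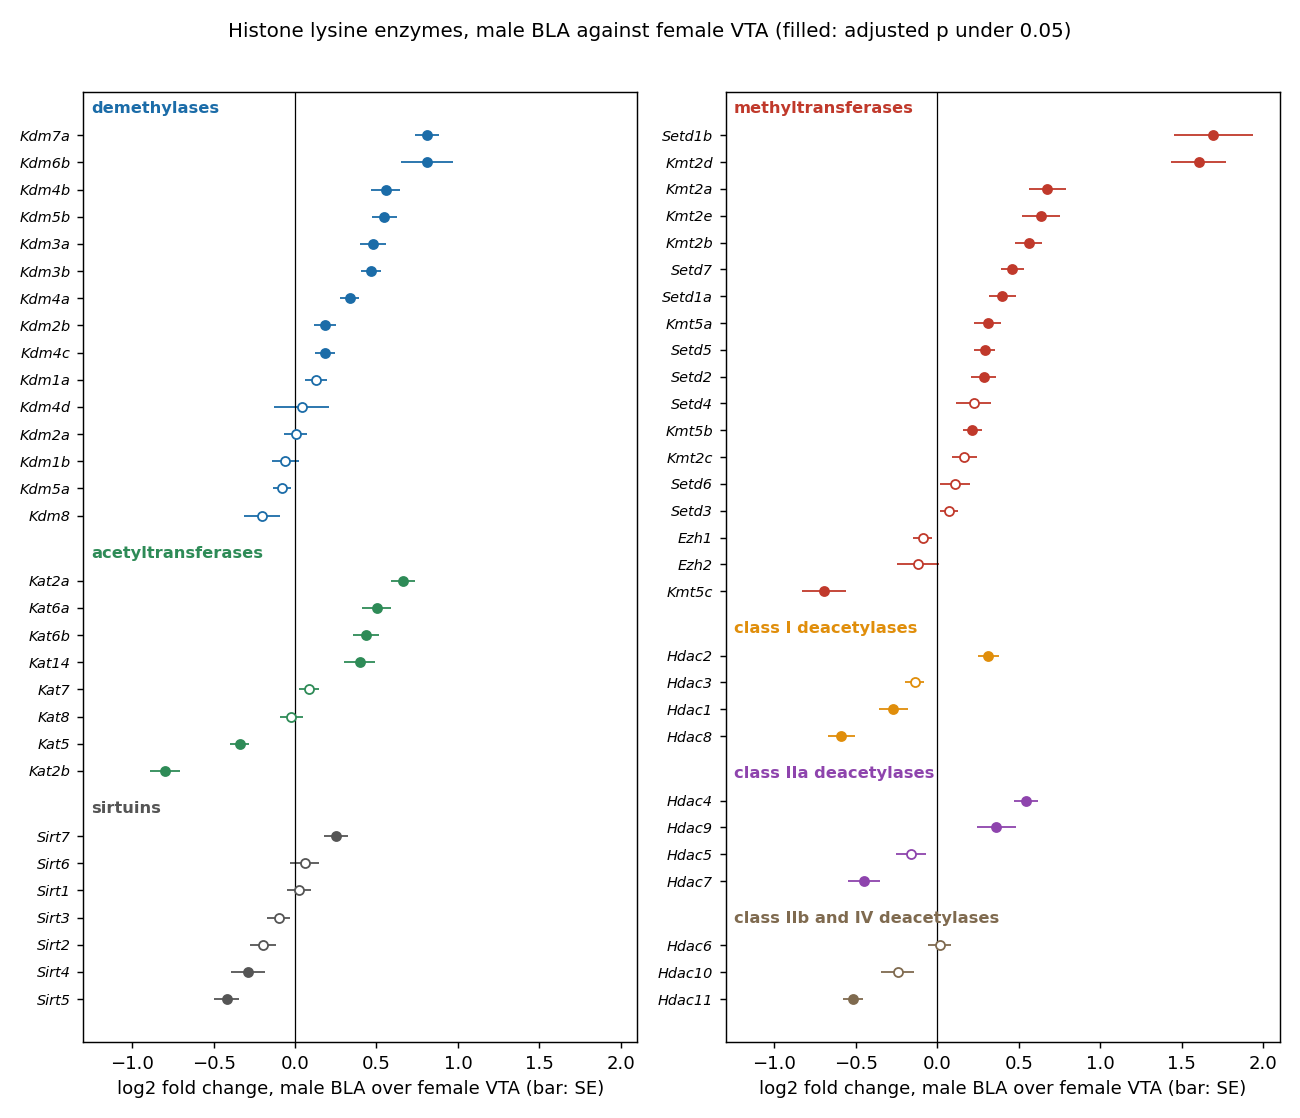
Log2 fold change of each gene, male BLA over female VTA (horizontal axis), with bars for 1 SE and rows grouped by role, from the fit over 12 libraries. Filled points passed at a Benjamini-Hochberg adjusted p under 0.05 (28 genes to the right of 0 and 9 to the left), and Setd1b and Kmt2d lie farthest right.

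Kmt2d, which methylates histone H3 at enhancers and lies at chr15:98831669-98871204 (mm10), was 1 of the 2 methyltransferases with the widest regional gap. It measured 129, 119 and 165 CPM in isolated BLA and 121, 175 and 99.5 CPM in group-housed BLA, against 38.2, 46.4 and 63.6 CPM in isolated VTA and 33.8, 41.4 and 43.97 CPM in group-housed VTA (libraries 1 to 3 of each group). Every BLA library exceeded every VTA library, and within BLA the highest were isolated library 3 and group-housed library 2, both rich in ribosomal RNA reads. Its log2 fold change was 1.60 (SE 0.17), a 3.04-fold level (edgeR, Benjamini-Hochberg adjusted p = 1.98e-05). It was 1.28 without the 3 ribosomal RNA-rich libraries.

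Setd1b (chr5:123142193-123168629, mm10) showed the same separation at a lower level. Its values were 21.2, 12.2 and 22.4 CPM in isolated BLA and 19.97, 28.4 and 11.8 CPM in group-housed BLA, against 4.81, 6.39 and 8.64 CPM in isolated VTA and 4.42, 5.998 and 5.51 CPM in group-housed VTA. The groups of the 2 regions did not overlap, although BLA libraries differed among themselves by more than a factor of 2. The log2 fold change was 1.69 (SE 0.24) (edgeR, Benjamini-Hochberg adjusted p = 1.89e-04) and 1.20 without the ribosomal RNA-rich libraries.

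The rest of the Kmt2 and Setd1 family, the catalytic subunits of COMPASS-type complexes and the more distant Kmt2e, leaned the same way. All 7 had a positive log2 fold change with each scaling tried, but 6 of 7 once the trend over exon length was taken out. Their median was 0.64, or 0.37 without the ribosomal RNA-rich libraries, and 6 passed in both. Kmt2a, a regulator of developmental genes, measured 174, 154 and 193 CPM in isolated BLA and 154, 215 and 131 CPM in group-housed BLA, against 85.3, 115 and 105 and 111, 109.8 and 113 CPM in isolated and group-housed VTA. The regions did not overlap for Kmt2a, with its highest BLA value in group-housed library 2. Its log2 fold change was 0.68 (SE 0.11), and 0.42 without the ribosomal RNA-rich libraries. Kmt2b gave 0.56 (SE 0.083), or 0.37 without them. Kmt2e, Setd1a and Kmt2c were added to complete the family after their values were seen. Kmt2e gave 0.64 (SE 0.12) and, without those libraries, 0.33. Setd1a gave 0.40 (SE 0.082), but 52.3% of its exon bases are shared with 2 other annotated genes, the main one on the same strand, so its counts are uncertain. Kmt2c, the partner paralog of Kmt2d, did not pass, at 0.17 (SE 0.078).

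Of the other methyltransferases, 5 passed as higher in BLA and 1 as lower, which made 11 and 1 of 18 in the role. Setd7, a monomethyltransferase of histone H3, measured 168 to 193 CPM in BLA and 114 to 150.4 CPM in VTA, with a log2 fold change of 0.46 (SE 0.072). Setd2, which marks the bodies of transcribed genes, differed less, at 142 ± 15.6 CPM in BLA and 117 ± 7.44 CPM in VTA (SD, n = 6 each) and a log2 fold change of 0.28 (SE 0.077). Without the ribosomal RNA-rich libraries Setd2 stood at 0.11 and did not pass, and the role then counted 7 higher and 1 lower. Kmt5c, which adds methyl groups to histone H4 in heterochromatin, went the other way. It stood at 7.38, 5.68 and 6.195 CPM in isolated BLA and 6.96, 3.94 and 5.29 CPM in group-housed BLA, against 9.66, 9.88 and 8.04 and 8.66, 10.5 and 10.9 CPM in isolated and group-housed VTA. No BLA library of Kmt5c reached the lowest VTA library, and the log2 fold change was -0.70 (SE 0.13). The Polycomb pair did not pass: Ezh1 had a log2 fold change of -0.091 (2 SE either side, -0.20 to 0.022) and Ezh2 of -0.12 (-0.38 to 0.14), or -0.24 without the ribosomal RNA-rich libraries.

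Among the 15 demethylases 9 passed, all as higher in BLA, against 7 higher without the ribosomal RNA-rich libraries, and 8 higher and 2 lower once the trend over exon length was taken out. Kdm7a, a JmjC demethylase of repressive histone H3 marks at chr6:39136623-39206789 (mm10), had the lowest adjusted p of all members. It measured 109, 103 and 105 CPM in isolated BLA and 99.3, 115 and 93.1 CPM in group-housed BLA, against 61.1, 58.1 and 72.2 CPM in isolated VTA and 57.6, 49.95 and 58.2 CPM in group-housed VTA. The regions stayed well apart, with the highest VTA library, isolated library 3, still below all BLA libraries. The log2 fold change was 0.81 (SE 0.074) (edgeR, Benjamini-Hochberg adjusted p = 5.74e-07) and 0.70 without the ribosomal RNA-rich libraries.

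Kdm6b, which opposes Polycomb silencing, had a similar fold change from a much lower level. Its libraries held 8.799, 7.59 and 11.6 CPM in isolated BLA and 9.94, 14.3 and 7.13 CPM in group-housed BLA, against 4.65, 5.56 and 5.73 CPM in isolated VTA and 5.31, 6.61 and 5.71 CPM in group-housed VTA. The lowest BLA library lay just above the highest VTA library. The log2 fold change of 0.81 (SE 0.16) became 0.41 without the ribosomal RNA-rich libraries.

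Kdm3a and Kdm3b, which act on the heterochromatin-linked methylation of histone H3, had log2 fold changes of 0.48 (SE 0.078) and 0.47 (SE 0.061), although 24.6% of the exon bases of Kdm3b are shared with an annotated gene on the opposite strand. Kdm4b, of a subfamily that acts on the same kind of mark, gave 0.56 (SE 0.088) with 73.04 to 105 CPM in BLA and 51.98 to 62.9 CPM in VTA. Kdm5b, an eraser of the promoter mark placed by COMPASS-type complexes, measured 107 to 126 CPM in BLA and 68.5 to 94.3 CPM in VTA, with a log2 fold change of 0.55 (SE 0.075). For these 4 genes no BLA library overlapped a VTA library. An enzyme that adds the promoter mark, Kmt2a, and 1 that removes it, Kdm5b, were thus both higher in BLA. Kdm2b passed as higher, at 18.6 ± 0.700 CPM in BLA and 16.4 ± 0.859 CPM in VTA (SD, n = 6 each). Its call was the one lost most often, and its log2 fold change was 0.16 without the ribosomal RNA-rich libraries. Kdm1a did not pass, at 74.6 ± 6.604 CPM in BLA and 68.5 ± 6.61 CPM in VTA (SD, n = 6 each).

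The acetyltransferases divided, and the clearest split was between paralogs. Kat2a and Kat2b are alternative catalytic subunits of the SAGA and ATAC coactivator complexes. Kat2a (chr11:100704746-100712465, mm10) measured 48.7, 52.3 and 55.6 CPM in isolated BLA and 51.7, 59.8 and 53.7 CPM in group-housed BLA, against 36.5, 32.8 and 43.2 CPM in isolated VTA and 31.4, 28.8 and 31.5 CPM in group-housed VTA. Kat2b (chr17:53566861-53672720, mm10) measured 35.7, 26.6 and 23.5 and 27.6, 26.7 and 22.9 CPM in isolated and group-housed BLA, against 51.6, 46.7 and 53.1 and 41.1, 44.5 and 46.8 CPM in isolated and group-housed VTA. For both genes the regions were separate, with BLA above VTA in Kat2a and below it in Kat2b. Log2 fold changes were 0.66 (SE 0.075) for Kat2a and -0.80 (SE 0.094) for Kat2b (edgeR, Benjamini-Hochberg adjusted p = 4.10e-06 and 6.06e-06). Without the ribosomal RNA-rich libraries the pair stood at 0.58 and -0.86.

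Kat6a, a large acetyltransferase of developmental genes, gave 0.50 (SE 0.087), and 0.28 without the ribosomal RNA-rich libraries. Its paralog Kat6b gave 0.44 (SE 0.079), and Kat14 gave 0.40 (SE 0.093). Without the ribosomal RNA-rich libraries Kat14 was at 0.24 and did not pass, and 14.7% of its exon bases are shared with Pet117 on the same strand. Kat5, the catalytic subunit of the NuA4 complex, was lower, at 36.4 to 41.1 CPM in BLA and 44.3 to 55.7 CPM in VTA with a log2 fold change of -0.34 (SE 0.059). Of the exon bases of Kat5, 12.1% are shared with Rnaseh2c on the opposite strand. Kat7 and Kat8 did not pass.

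Among the zinc-dependent deacetylases 7 of 11 passed, 3 as higher and 4 as lower in BLA. These are 27.3% and 36.4%, against 23.7% and 24.1% of all genes. Hdac11 (chr6:91156665-91174692, mm10) stood at 131, 144 and 135 CPM in isolated BLA and 152, 133 and 151 CPM in group-housed BLA, against 223, 199 and 208 CPM in isolated VTA and 192, 195 and 198 CPM in group-housed VTA. No BLA library came near the lowest VTA library. The log2 fold change was -0.52 (SE 0.060) (edgeR, Benjamini-Hochberg adjusted p = 5.57e-06), with 17.9% of its exon bases shared with 2 other annotated genes, the main one on the opposite strand.

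Hdac8, an X-linked class I enzyme, was also lower in BLA in every library. It measured 14.7, 12.04 and 12.5 CPM in isolated BLA and 11.9, 9.69 and 11.7 CPM in group-housed BLA, against 18.5, 18.97 and 18.02 and 18.1, 16.8 and 18.6 CPM in isolated and group-housed VTA. Its log2 fold change was -0.59 (SE 0.081). Hdac1 and Hdac2 serve in the same Sin3, NuRD and CoREST complexes, yet only Hdac2 was higher, at 84.8 ± 3.55 CPM in BLA and 68.3 ± 6.84 CPM in VTA (SD, n = 6 each; log2 fold change 0.31 (SE 0.064)). Hdac1 was lower, at 11.7 ± 0.549 CPM in BLA and 14.2 ± 1.98 CPM in VTA (SD, n = 6 each; log2 fold change -0.27 (SE 0.089)), a call that was lost under 7 alternative settings.

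Class IIa enzymes move between nucleus and cytoplasm with neuronal signalling. Hdac4 measured 65.5, 69.95 and 82.1 CPM in isolated BLA and 68.2, 82.2 and 76.8 CPM in group-housed BLA, against 52.8, 50.3 and 61.3 CPM in isolated VTA and 46.3, 46.9 and 48.1 CPM in group-housed VTA. The regions did not overlap, and the log2 fold change was 0.54 (SE 0.074), with 22.4% of exon bases shared with an annotated gene on the opposite strand. Hdac7, known from endothelial cells and lymphocytes, went the other way, at 9.75 to 14.2 CPM in BLA and 13.3 to 20.1 CPM in VTA with a log2 fold change of -0.45 (SE 0.10). Endothelial markers, 8 of 8 in the table and none at 0, summed to 182 to 198 CPM in isolated BLA and 192 to 198 CPM in group-housed BLA, against 253 to 296 and 211 to 315 CPM in isolated and group-housed VTA, and their part in the Hdac7 difference was not tested. Hdac9 passed as higher, at 71.4 ± 13.2 CPM in BLA and 55.5 ± 5.25 CPM in VTA (SD, n = 6 each), with overlapping libraries. Its call was among those lost most often, as counted in the closing section. Without the ribosomal RNA-rich libraries its log2 fold change was 0.24, with Hdac2 at 0.22 and Hdac1 at -0.26. Hdac5 did not pass, at 137 ± 13.9 CPM in BLA and 153 ± 19.9 CPM in VTA (SD, n = 6 each).

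Of the 7 sirtuins 3 passed, or 42.9%, against 47.7% of all genes. Sirt7, a nucleolar enzyme named here after its value was seen, was higher in BLA, with a log2 fold change of 0.25 (SE 0.072). The mitochondrial Sirt5 and Sirt4 were lower, at -0.42 (SE 0.076) and -0.29 (SE 0.11), and Sirt4 did not pass without the ribosomal RNA-rich libraries (-0.15) and lost its call under 12 alternative settings in all. Only for Sirt5 were the regions separate (11.3 to 13.8 CPM in BLA and 15.6 to 18.3 CPM in VTA). Sirt1, the nuclear sirtuin most studied in stress, measured 20.3 ± 1.13 CPM in BLA and 19.9 ± 1.65 CPM in VTA (SD, n = 6 each) and did not pass. Its log2 fold change of 0.024 had 2 SE either side at -0.13 to 0.17, and was -0.030 without the ribosomal RNA-rich libraries. Sirt2 measured 94.7 ± 10.8 CPM in BLA and 109 ± 12.3 CPM in VTA (SD, n = 6 each), with a log2 fold change of -0.20 (SE 0.080) that missed the threshold (edgeR, Benjamini-Hochberg adjusted p = 0.052). Without the ribosomal RNA-rich libraries it was -0.38 and passed (edgeR, Benjamini-Hochberg adjusted p = 0.00673). The oligodendrocyte sums given above stand beside this value.

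**Figure D3:**
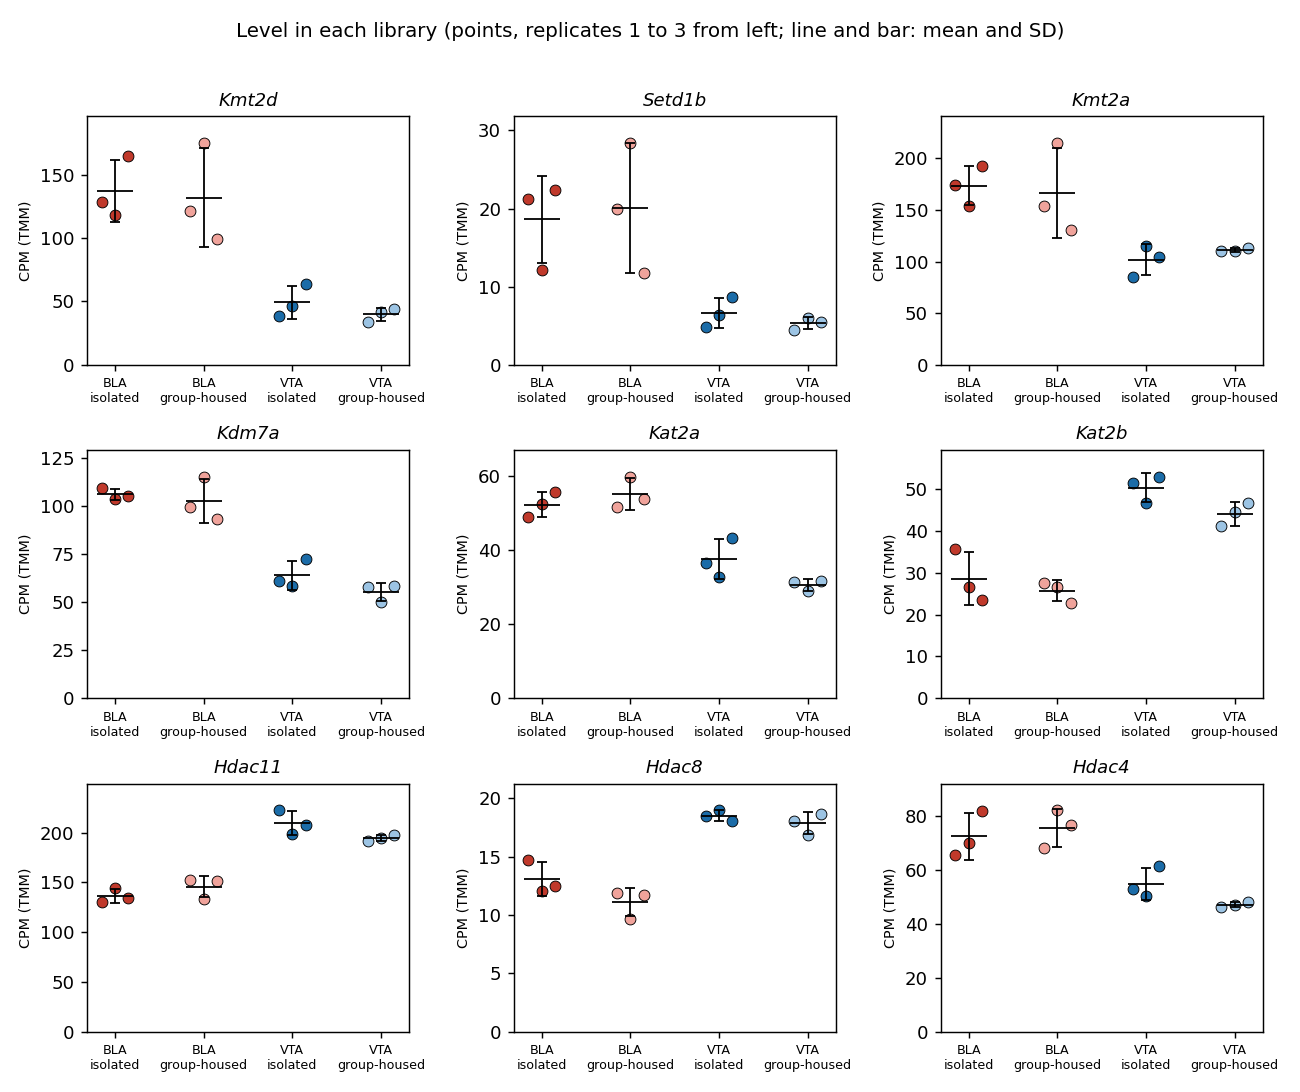
Level in CPM (vertical axes, starting at 0) of 9 genes in each of the 12 libraries, by group along the horizontal axis, with points for libraries 1 to 3 from left to right and the mean and SD drawn in black. BLA lies above VTA for Kmt2d, Setd1b, Kmt2a, Kdm7a, Kat2a and Hdac4, and below it for Kat2b, Hdac11 and Hdac8.

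Gene length went with the regional difference. The members were long, with a median exon length of 5973 bases against 3070.5 over the genes tested that had a length. Of the 20 longest members, from 9047 bases upwards, 17 passed as higher in BLA and none as lower, where 69.8% of all genes in that length range passed in either direction. Their median log2 fold change was 0.46, against 0.14 for all 1889 genes in that length range. Of the 20 shortest, up to 5158 bases, 5 passed as higher and 7 as lower, where 51.1% of all genes in that range passed. The median was -0.17, against -0.058 for all 10471 genes in that range. The 19 members in between gave 6 higher and 2 lower, where 62.0% of all genes in that range passed. Their median was 0.071, against 0.015 for all 4626 genes in that range. By these medians, long genes as a class leaned towards BLA, and the members leaned further in both directions. The share of all genes passing in each direction was not counted by length. With each library's smooth trend over exon length taken out, 33 members passed, 23 as higher and 10 as lower, which is 55.9% of the members against 47.5% of all genes, and the median was 0.12. That alternative was chosen after the data were seen.

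**Figure D4:**
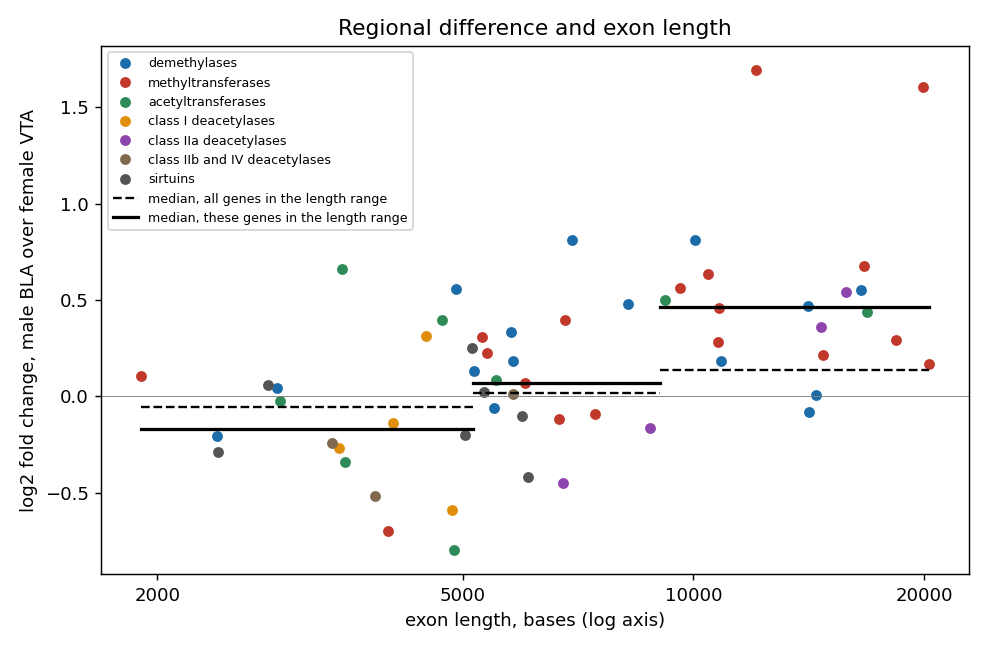
Log2 fold change, male BLA over female VTA (vertical axis), against exon length in bases (horizontal axis, log scale) for the 59 genes, coloured by role. Solid lines give the median of these genes within each length class (-0.17, 0.071 and 0.46) and dashed lines the median of all genes in the same ranges (-0.058, 0.015 and 0.14).

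Promoter content is given for the genes that passed in each direction as a description. The GC box was present in 65.6% of the 32 windows of members higher in BLA and in 30.8% of the 13 windows of members lower in BLA, which came from 21 and 8 genes. Counted by gene, 14 of the 21 higher members and 4 of the 8 lower ones had it in at least 1 window, and a single gene gave up to 4 windows. Windows with an observed to expected CpG ratio above 0.6 made up 78.1% and 53.8% of those sets.

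Within the BLA, isolation was not accompanied by a detectable difference in any of the 59 genes. None passed in edgeR (0 of 59) and none had an unadjusted p under 0.05, and DESeq2 and limma voom called 0 each. Among all 22109 genes tested, 0% passed and 1.99% had an unadjusted p under 0.05. Log2 fold changes, isolated over group-housed, ran from -0.18 to 0.24 with a median of -0.0042, and 29 were positive. Groups were separate for 2 members, against 7.11% of all genes. Beside this, the 8 markers of striatal projection neurons summed to 891 to 2266 CPM in isolated BLA and 657 to 1610 CPM in group-housed BLA, and their part was not tested.

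Those 2 were Hdac8 and Kdm4a. Hdac8 measured 14.7, 12.04 and 12.5 CPM in isolated BLA against 11.9, 9.69 and 11.7 CPM in group-housed BLA, so every isolated library was higher, by a narrow margin. The log2 fold change was 0.24 (SE 0.14), with 2 SE either side at -0.041 to 0.51. Kdm4a, a demethylase of histone H3, measured 62.6, 66.6 and 69.7 CPM in isolated BLA against 78.1, 69.9 and 73.9 CPM in group-housed BLA. Its isolated libraries were all lower, with isolated library 3 just under group-housed library 2, and the log2 fold change was -0.15 (SE 0.091). Kmt5c had the highest log2 fold change, 0.24 (SE 0.21), from 7.38, 5.68 and 6.195 CPM in isolated BLA against 6.96, 3.94 and 5.29 CPM in group-housed BLA, and its groups overlapped.

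The other members with the lowest unadjusted p values in each direction were unremarkable against their errors. On the higher side, Kat2b had a log2 fold change of 0.16 (SE 0.15), Sirt5 of 0.11 (SE 0.12), Kdm4c of 0.069 (SE 0.089) and Ezh2 of 0.14 (SE 0.19). On the lower side, Kat7 had -0.13 (SE 0.10), Sirt2 -0.12 (SE 0.12), Hdac11 -0.089 (SE 0.095), Hdac9 -0.18 (SE 0.19) and Ezh1 -0.077 (SE 0.095). Genes often studied in stress kept similar means: Hdac2 at 84.8 ± 3.698 CPM in isolated BLA and 84.7 ± 4.21 CPM in group-housed BLA (SD, n = 3 each), Hdac5 at 134 ± 10.6 and 139.6 ± 18.5, Sirt1 at 20.5 ± 1.29 and 20.04 ± 1.16, and Kdm5b at 120.4 ± 4.55 and 118 ± 10.2. Kdm6b stood at 9.34 ± 2.08 CPM in isolated BLA and 10.5 ± 3.61 CPM in group-housed BLA, with its highest values in the ribosomal RNA-rich libraries.

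In the VTA, too, no member passed (0 of 59, edgeR; 0 with DESeq2 and 0 with limma voom). Among all 24081 genes tested 1 passed, which is 0.00415%. At an unadjusted p under 0.05 stood 7 members, 11.9% of the 59, against 18.3% of all genes. Groups did not overlap for 15 members, or 25.4%, against 29.1% of all genes. Overlap was judged on CPM with factors over all 12 libraries, whereas the fold changes used factors over the 6 VTA libraries. Whether narrow separations depend on that scaling was not tested. Log2 fold changes ran from -0.45 to 0.32 with a median of 0.021, against -0.0013 over all genes, and 34 were positive. Beside these values, oligodendrocyte markers summed to 9695 to 13153 CPM in isolated VTA against 6657 to 10936 CPM in group-housed VTA. The choroid plexus, glutamatergic and striatal sums are given above. Their part in the values below was not tested.

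Hdac7 had the lowest unadjusted p of the members. It measured 13.998, 15.8 and 13.3 CPM in isolated VTA against 19.9, 20.1 and 16.9 CPM in group-housed VTA. Every isolated library was lower, and the log2 fold change was -0.45 (SE 0.12) (edgeR, unadjusted p = 0.00445, Benjamini-Hochberg adjusted p = 0.236). Setd1a was next, with 8.399, 8.66 and 7.63 CPM in isolated VTA against 10.5, 10.7 and 10.02 CPM in group-housed VTA. All 3 isolated libraries were lower again, with a log2 fold change of -0.40 (SE 0.12), on counts that may be shared with the overlapping genes. Kmt2b also had separate groups and a log2 fold change of -0.19 (SE 0.082).

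On the higher side, Kmt5a, which adds a single methyl group to histone H4, measured 32.1, 26.6 and 32.7 CPM in isolated VTA against 23.7, 20.7 and 25.95 CPM in group-housed VTA. Its groups were separate by a small margin, and the log2 fold change was 0.32 (SE 0.11) (edgeR, unadjusted p = 0.0188, Benjamini-Hochberg adjusted p = 0.241). Kat6b measured 101, 82.2 and 111 CPM in isolated VTA against 77.6, 81.9 and 76.3 CPM in group-housed VTA, with isolated library 2 only just above the controls and a log2 fold change of 0.26 (SE 0.10). Kat2a measured 36.5, 32.8 and 43.2 CPM in isolated VTA against 31.4, 28.8 and 31.5 CPM in group-housed VTA. Its highest value was in isolated library 3, the library with choroid plexus, glutamatergic and striatal markers, and the log2 fold change was 0.24 (SE 0.10). Among the isolated VTA libraries, Kmt5a, Kat6b, Kdm1a and Hdac4 were likewise highest in library 3. Kdm1a, at 71.95, 73.8 and 76.6 CPM in isolated VTA against 66.4, 62.3 and 60.1 CPM in group-housed VTA, had separate groups and a log2 fold change of 0.18 (SE 0.073).

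A single library decided whether any member passed. That was isolated VTA library 2, with 27.6 CPM over the 8 choroid plexus markers. Its removal leaves isolated libraries 1 and 3, with 248 and 3366 CPM over those markers. The part of this in the fit was not tested. Without isolated VTA library 2, 1200 genes passed in all, 4.81% of those tested, and 3 members were among them, 5.08% of the 59. These were Kmt2c at a log2 fold change of -0.34, Kat6b at 0.36 and Hdac7 at -0.54 (edgeR, Benjamini-Hochberg adjusted p = 0.0467, 0.0492 and 0.0482).

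Leaving out both choroid plexus-rich libraries keeps 1 isolated VTA library, which is then assumed to vary like the group-housed ones. By role, all 8 acetyltransferases had a positive log2 fold change in the VTA, with a median of 0.12, but 6 of 8 with upper-quartile scaling and 7 of 8 without the 2 choroid plexus-rich libraries. Of the 15 demethylases 11 were positive, or 7 without those libraries and 4 with upper-quartile scaling, which moved the median of all genes from -0.0013 to -0.073. In the Kmt2 and Setd1 family 5 of 7 were negative with either scaling, with a median of -0.18, but 3 of 7 without the choroid plexus-rich libraries, while Kmt2d and Setd1b were positive with wide errors. Kmt2d measured 38.2, 46.4 and 63.6 CPM in isolated VTA against 33.8, 41.4 and 43.97 CPM in group-housed VTA, and Setd1b 4.81, 6.39 and 8.64 against 4.42, 5.998 and 5.51 CPM. Both overlapped between groups and were highest in isolated library 3.

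The remaining members that the rule named were Sirt3 (0.21 (SE 0.095)) and Hdac4 (0.16 (SE 0.084)) on the higher side and Kdm4a (-0.17 (SE 0.078)), Setd6 (-0.29 (SE 0.14)) and Hdac1 (-0.27 (SE 0.13)) on the lower side, given as log2 fold change with SE. Hdac4 measured 52.8, 50.3 and 61.3 CPM in isolated VTA against 46.3, 46.9 and 48.1 CPM in group-housed VTA, so its groups were separate. Of the exon bases of Sirt3, 12.7% are shared with 2 other annotated genes. Hdac2, Sirt1 and Ezh2 averaged 72.1 ± 7.97, 20.3 ± 1.32 and 10.9 ± 1.69 CPM in isolated VTA, against 64.6 ± 3.27, 19.5 ± 2.14 and 9.18 ± 0.865 CPM in group-housed VTA (SD, n = 3 each).

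**Figure D5:**
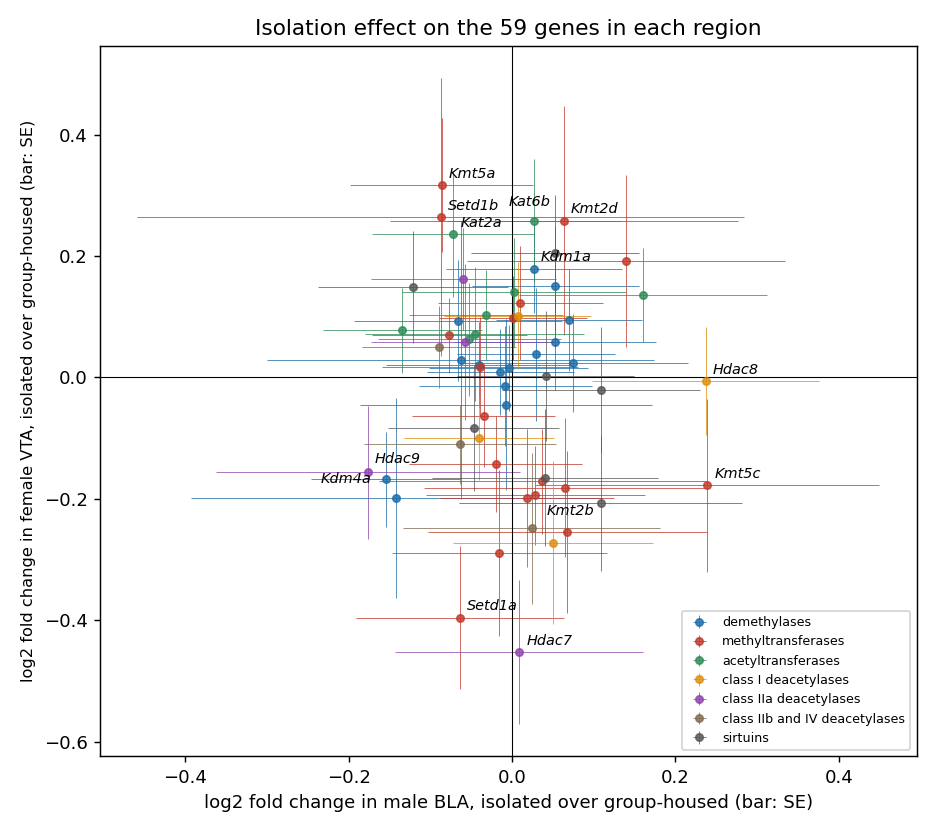
Log2 fold change, isolated over group-housed, in male BLA (horizontal axis) and in female VTA (vertical axis) for the 59 genes, with bars for 1 SE and colour by role. Values run from -0.18 to 0.24 in BLA and from -0.45 to 0.32 in VTA, and none passed in either region.

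The response to isolation was set between regions by the contrast of BLA minus VTA on all 12 libraries, in which sex changes with region. No member passed (0 of 59; 0 with DESeq2 and 0 with limma voom), as among all 25009 genes (0%). At an unadjusted p under 0.05 stood 3 members, 5.08%, against 14.9% of all genes. These were Kmt5a, at -0.47 (SE 0.17), Kat2a, at -0.37 (SE 0.15), and Kat7, an acetyltransferase of replication origins, at -0.27 (SE 0.12). In Kmt5a the isolated mean was 32.1 ± 1.28 against 34.3 ± 4.41 CPM in BLA and 30.5 ± 3.35 against 23.5 ± 2.63 CPM in VTA (SD, n = 3 each). In Kat2a it was 52.2 ± 3.43 against 55.1 ± 4.202 CPM in BLA and 37.5 ± 5.31 against 30.6 ± 1.55 CPM in VTA. Both genes were lower on average in isolated than in group-housed BLA and higher in isolated than in group-housed VTA. On the positive side Hdac7 came nearest, at 0.40 (SE 0.19), followed by Setd1a at 0.27 (SE 0.16) and Hdac1 at 0.26 (SE 0.18). Kmt5c, Sirt4 and Setd4 were at 0.36 (SE 0.27), 0.26 (SE 0.21) and 0.26 (SE 0.22), and on the negative side Sirt2, Hdac4 and Kat6b were at -0.33 (SE 0.16), -0.28 (SE 0.15) and -0.29 (SE 0.16). All 15 demethylases and all 8 acetyltransferases had a negative difference, but 11 demethylases and 1 acetyltransferase were positive with upper-quartile scaling, which moved the median of all genes from -0.059 to 0.082.

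Replicate spread among the members was smaller than over all genes tested, a set that was not matched to them in level. The median SD within groups was 0.13 on the log2 scale (of CPM plus 0.5), against 0.20 over all genes tested. Setd1b (0.45), Kmt2d (0.32) and Kdm6b (0.30) varied most, and Kdm5a (0.064) and Setd3 (0.065) least. The 3 most variable members were also among those with the widest regional gap.

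Partners of these enzymes were counted over 7 lists of other genes of the same pathways, of which 112 were tested in every contrast. Beside the regional counts for all 7 lists, 23.7% of all genes passed as higher in BLA and 24.1% as lower. In the regional contrast 18 of 26 tested subunits of deacetylase corepressor complexes passed, 16 as higher in BLA and 2 as lower, with a median log2 fold change of 0.28. Ncor1, the scaffold that holds Hdac3, was at 0.84 (SE 0.085). Of 30 subunits of acetyltransferase complexes 14 passed as higher and 4 as lower (median 0.12), led by Trrap, a shared scaffold, at 0.80 (SE 0.065). Of 11 COMPASS and MLL complex subunits 5 passed as higher and 2 as lower (median 0.14), led by Ncoa6, a subunit of the Kmt2d complex, at 1.19 (SE 0.14). Of 10 Polycomb repressive complex 2 subunits 5 passed as higher and 2 as lower (median 0.21), led by Aebp2 at 0.37 (SE 0.057).

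The last 3 lists held enzymes outside the naming pattern. Of 9 other histone acetyltransferases 6 passed as higher and 1 as lower (median 0.28), led by Crebbp, the CREB coactivator, at 1.01 (SE 0.11). Of 19 other histone lysine methyltransferases 11 passed as higher and 4 as lower (median 0.24), and the lowest p was that of Smyd1, known from muscle, at -1.72 (SE 0.19). Of 7 other JmjC demethylases 4 passed as higher and 1 as lower (median 0.28), and Hr had the lowest p, at -1.19 (SE 0.13). In the isolation contrasts no gene of any of the 7 lists passed in BLA, in VTA or in the difference (edgeR), and those at an unadjusted p under 0.05 numbered 0, 17 and 8 of the 112 tested. Among all genes tested, 1.99%, 18.3% and 14.9% had an unadjusted p under 0.05 in the same order. In BLA the lowest unadjusted p per list belonged to Aebp2, at 0.10 (SE 0.090), Psip1, at -0.12 (SE 0.11), Mta3, at -0.21 (SE 0.10), Epc2, at -0.19 (SE 0.14), Prdm9, at -0.54 (SE 0.26), Ep300, at -0.067 (SE 0.12), and Riox2, at 0.20 (SE 0.13). The lowest unadjusted p per list in the VTA belonged to Epop, at 1.81 (SE 0.52), Hcfc1, at -0.13 (SE 0.079), Chd5, at -0.25 (SE 0.072), Ing4, at -0.67 (SE 0.20), Dot1l, at -0.29 (SE 0.10), Atf2, at 0.23 (SE 0.074), and Phf8, at -0.13 (SE 0.092). In the difference they were Epop, at -2.01 (SE 0.66), Wdr82, at -0.27 (SE 0.14), Sap30, at -0.96 (SE 0.34), Msl3, at -0.33 (SE 0.15), Dot1l, at 0.40 (SE 0.16), Ncoa1, at -0.36 (SE 0.17), and Riox1, at -0.20 (SE 0.20), none of which passed.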

How the data were processed

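Total RNA had been extracted with Trizol and made into stranded, ribosomal RNA-depleted libraries, per the labels' protocols. Cutadapt, TopHat2, HTSeq and the mm10 build are named in the submitters' processing notes. For versions, annotation and the strand setting of the counting, none is given in the sources used here. Counts of overlapping genes can thus not be assigned to a strand. The values analysed were raw read counts per gene as deposited by the authors, 12 libraries in 4 groups of 3.

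Counts were tested with edgeR 4.0.16 (TMM factors, filterByExpr with a minimum count of 10, robust quasi-likelihood F test) in R 4.3.3, with Benjamini-Hochberg adjustment over all genes and a threshold of 0.05. BLA and VTA were each fitted on 6 libraries, and the region contrast (mean BLA minus mean VTA) and the difference of isolation effects on 12. Overlap between groups was judged on CPM with TMM factors over all 12 libraries, also for BLA and VTA, whose fits had their own factors. SEs are the log2 fold change over the square root of F. DESeq2 1.42.0, limma 3.58.1 and the other alternatives are given in the closing section. The fits were also run on simulated counts with known changes, and the share recovered is not given here. Exon lengths, overlaps and mm10 coordinates came from GENCODE M21, and upstream sequences from RefSeq.

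Named were the members with the lowest p in each direction per contrast (up to 10 in the region contrast and 6 in the others), a list of well-studied members, and the highest and lowest per exon length in each role. Kmt2c, Kmt2e, Setd1a, Kat6b, Kat8, Sirt7, Hdac9 and Kdm2b in the region contrast were added after their values were seen. The members and lists were chosen with earlier results of these data known.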

Additional observations from a re-analysis of the deposited data

How the results depend on the processing

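The labels do not say whether the replicate numbers pair the libraries. Deviations of same-numbered libraries correlated at 0.33, -0.092 and 0.0096 in BLA and at -0.086, 0.0047 and -0.043 in VTA, too few values to settle it. With the replicate number as a block, 0 members passed in BLA, 0 in VTA, 0 in the difference and 37 in the region contrast (28 higher, 9 lower), with medians of -0.0013 in BLA, 0.022 in VTA and 0.17 in the region contrast. Leaving out 1 library at a time gave 0 to 3 members in VTA, with 3 only without isolated VTA library 2, and 33 to 38 in the region contrast. The medians then ran from -0.034 to 0.010 in BLA, from -0.0058 to 0.038 in VTA and from 0.125 to 0.177 in the region contrast. Without the ribosomal RNA-rich libraries, which leaves 1 group-housed BLA library assumed to vary like the isolated ones, the median in BLA was 0.038. In VTA it was -0.050 with upper-quartile factors, 0.077 in a fit of all 12 libraries and 0.056 with the GC trend taken out. In the region contrast it was 0.104 with upper-quartile factors, 0.114 without the ribosomal RNA-rich libraries, 0.133 without the choroid plexus-rich libraries, 0.118 with the length trend taken out and 0.210 in group-housed libraries alone. Upper-quartile factors gave 25 higher and 13 lower. Over all genes, DESeq2 called 6 in BLA, 485 in VTA and 138 in the difference, and without a filter on low counts 8 passed in BLA and 17 in VTA. Without isolated VTA library 2, which leaves the 2 choroid plexus-rich libraries as the isolated VTA group, 487 genes passed in the difference. No member was among the DESeq2 or unfiltered calls. The gap in median log2 fold change between the longest and the shortest members (20 each) was 0.632 (0.643 by longest transcript). Signs reversed in BLA for Sirt2 (0.087) and Ezh1 (0.0042) without the ribosomal RNA-rich libraries, and for Kat2b (-0.033), Ezh2 (-0.095) and Hdac9 (0.033) without isolated BLA library 1. Leaving out 1 library at a time gave these 3 a range of -0.033 to 0.275, -0.095 to 0.251 and -0.324 to 0.033 in that order, and Sirt1 in the region contrast one of -0.022 to 0.052. In the region contrast Sirt1 reversed with upper-quartile factors (-0.035), without the ribosomal RNA-rich libraries (-0.030), without group-housed BLA library 2 (-0.0068) and without group-housed VTA library 3 (-0.022), and Ezh1 did so in group-housed libraries alone (0.012). The cause was not tested for any of these. In the region contrast, calls were followed over 43 members: those named by p, all others that passed and the well-studied ones. Over these, 73 gene and setting pairs lost a call and 16 gained one, most often Kdm2b (16 settings), Sirt4 (12) and Hdac9 (11). The choroid plexus, ribosomal RNA, length and GC settings and those restricted to 1 housing were chosen after seeing the data. The median SE of a member's log2 fold change was 0.12 in BLA and 0.099 in VTA, and a value as far from 0 as -0.45 (Hdac7 in VTA) did not pass.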
